A study of Drosophila melanogaster with 18 samples.

Results

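*Drosophila melanogaster* of the wild-type strain Canton-S were kept at 29°C or at 25°C, and the RNA of their heads was compared, over the 6 libraries of each temperature collected at ZT3, ZT7, ZT11, ZT15, ZT19 and ZT23 (hours after lights on) and paired by time point. These are 12 of 18 libraries in all, and the other 6, from flies kept at 18°C, served to estimate the spread and are given as values beside the comparison, since a comparison of 18°C with 25°C would share the 25°C libraries. Before collection the flies had been entrained for some days to equal hours of light and dark at their own temperature, and polyadenylated RNA of their heads was sequenced at its 3′ ends. For the fifth time point the labels give both 18 h and 19 h, and 19 h was used. Each temperature and time point is 1 library, so the time points stood in for replicates and the p-values measure only the spread between these libraries. The sex and number of the flies are not given in the sources used here. Head RNA is bulk RNA, in which fewer cells of a type and less RNA per cell cannot be told apart.

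Flies do not regulate their body temperature, so a few degrees of ambient warmth act on every cell. Heat shock factor switches on chaperones, which hold and refold unfolded proteins, in the small Hsp, chaperonin and larger heat shock protein families. Within the head, most RNA comes from the retina and brain, the head fat body (an organ of storage and of humoral immunity, which in females also makes yolk protein), muscle and the epidermis under the cuticle.

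The values are reads per transcript end on a scale set by the authors, called signal here. Estimated depth was 1.24 to 4.09 M reads at 25°C and 2.25 to 6.61 M at 29°C, and did not differ detectably (exact permutation within time points, two-sided p = 0.188, n = 6 pairs). The shallowest library was 25°C at ZT15. On the first principal component of the 12 libraries (21.1% of the variance) it lay at one end and 29°C at ZT15 at the other, so called genes are also read without ZT15, and list medians that this moved by over 1.5 times are given without it. Markers of photoreceptors, neurons, glia, fat body and muscle were present in all 12 libraries, except that the flight muscle genes *Act88F* and *fln* were at or under 3 reads in 1 and 11 of them. Of the gut, ovary and testis markers looked for, each but the maltase gene *Mal-A1* (above 3 reads in all 12, at 9.67 to 92.8) was at or under 3 reads in at least 7 of the 12 libraries, although single libraries had more, such as 149.7 for *Jon65Aiii*, a gut protease, at 29°C.

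The 3′ ends are counted as transcript rows whose values differ within a gene, so 1 end can be counted more than once. Of 10048 tested 3′ ends, 1528 had an unadjusted p under 0.05 in limma. With rows of a gene under 10% apart merged, 8836 were tested and 241 called (limma adjusted p under 0.05). A small share, 295 of the 10048 (2.94%), passed the adjusted threshold of 0.05. At 29°C 113 of them rose and 182 fell, and 51 differed by over 2-fold. Taken once per gene, by the end with the highest signal, 93 of 8114 genes rose (1.15%) and 139 fell (1.71%). These shares are the background for the counts of called genes in the lists below. Genes that carry the same values, such as *Hsp22* and *Hsp67Bb*, are each counted. The risers moved less than the fallers: 10 genes rose and 38 fell by over 2-fold, and the median change of called genes was 0.50 upward and -0.68 downward (log2, called genes only). Over all genes the median log2 change was 0.03. Of the 232 called genes, 200 had the same direction at all 6 time points. The test also depended on how the spread was pooled across genes: without a trend of the spread on the level, 39 3′ ends were called.

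**Figure D1:**
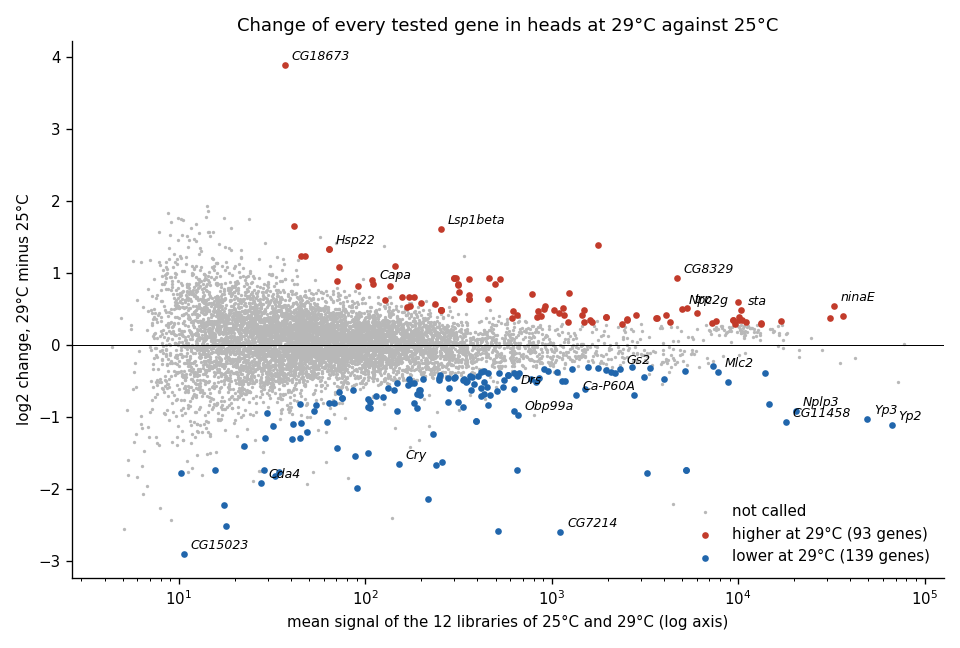
Log2 change of each of the 8114 tested genes (29°C minus 25°C, vertical axis) against its mean signal in the 12 libraries (horizontal axis, logarithmic). Red and blue points are the 93 genes called higher and the 139 called lower at 29°C, and grey points were not called. The changes of genes with high signal, such as *ninaE* and *Yp2*, are on the right.

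The largest rise was that of *CG18673* (dm3, 3R, 27088320 to 27089600), at 19.4 to 158 at 29°C against 0 to 16.5 at 25°C, where 3 of 6 libraries were at or under 3 reads (change 3.88 ± 0.73 in log2 ± SE, limma adjusted p = 0.00288, and 0.0250 without ZT15, a size that depends on the 1 added to each value before the logarithm). It was at 0 in all 6 libraries of 18°C. *Lsp1beta* (2L, 898644 to 901316), which encodes a larval serum protein stored by the fat body, ranged from 57.6 to 235 (median 136) at 25°C and from 268 to 672 (median 312) at 29°C (change 1.61 ± 0.27 in log2 ± SE, limma adjusted p = 0.00112, and 0.00124 without ZT15). Its groups did not overlap, and the related *Lsp1alpha*, *Lsp1gamma* and *Lsp2* had log2 changes of -2.43, -1.47 and -0.54 that did not pass the test (limma adjusted p = 0.200, 0.428 and 0.417). *Osi2*, of the Osiris family of secretory-pathway membrane proteins, rose from a mean of 94.3 ± 30.4 to 196 ± 43.3 (SD, n = 6) and *CG34456* from 21.0 ± 10.4 to 61.7 ± 18.3 (limma adjusted p = 0.00578 and 0.0321), the latter not without ZT15 (adjusted p = 0.123). Among genes of RNA and chromatin, *SmD1* (a core protein of spliceosomal particles) and *Bre1* (a histone H2B ubiquitin ligase) each rose by 1.23 (log2, limma adjusted p = 0.0179 and 0.0160), and neither was called without ZT15 (adjusted p = 0.102 and 0.0882). The signal at copies of the U2 spliceosomal RNA rose too, in these libraries of polyadenylated RNA. *snRNA:U2:34ABa* went from 149 to 251 (median 215) at 25°C and from 347 to 472 (median 396) at 29°C (change 0.93 ± 0.14 in log2 ± SE, limma adjusted p = 0.000352, and 0.00145 without ZT15), with no overlap, and *snRNA:U2:14B*, a near-identical copy on X, gave nearly the same values, so reads of the copies cannot be assigned with certainty.

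Chosen after the values were seen, *CG8329* (3L, 9631212 to 9632121) had the lowest p among the rises. Its signal went from 2981 to 3430.1 (median 3228) at 25°C and from 4417 to 8297 (median 6077) at 29°C (change 0.93 ± 0.10 in log2 ± SE, limma adjusted p = 1.97e-05, and 0.000252 without ZT15), and its mean at 18°C was 1782. Also outside the naming rule, *Npc2g*, of a family of sterol-binding proteins, rose, ranging from 3729 to 4624 (median 4132) at 25°C and from 4878 to 6693 (median 5901) at 29°C (change 0.49 ± 0.08 in log2 ± SE, limma adjusted p = 0.000636, and 0.00397 without ZT15), with groups that did not overlap. Its neighbour *Npc2h* rose by 0.48 (log2, limma adjusted p = 0.0145), but not without ZT15 (adjusted p = 0.0831). *MtnA*, a metallothionein that binds metal ions, rose by 0.37 (log2, limma adjusted p = 0.00778, 0.0268 without ZT15), with means of 13299, 27033 ± 3260.3 and 34839 ± 3575 in the order 18°C, then 25°C, then 29°C. The neuropeptide gene *Capa*, whose peptides act on the renal tubules, rose by 0.85 (log2, limma adjusted p = 0.00604, 0.0104 without ZT15).

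**Figure D2:**
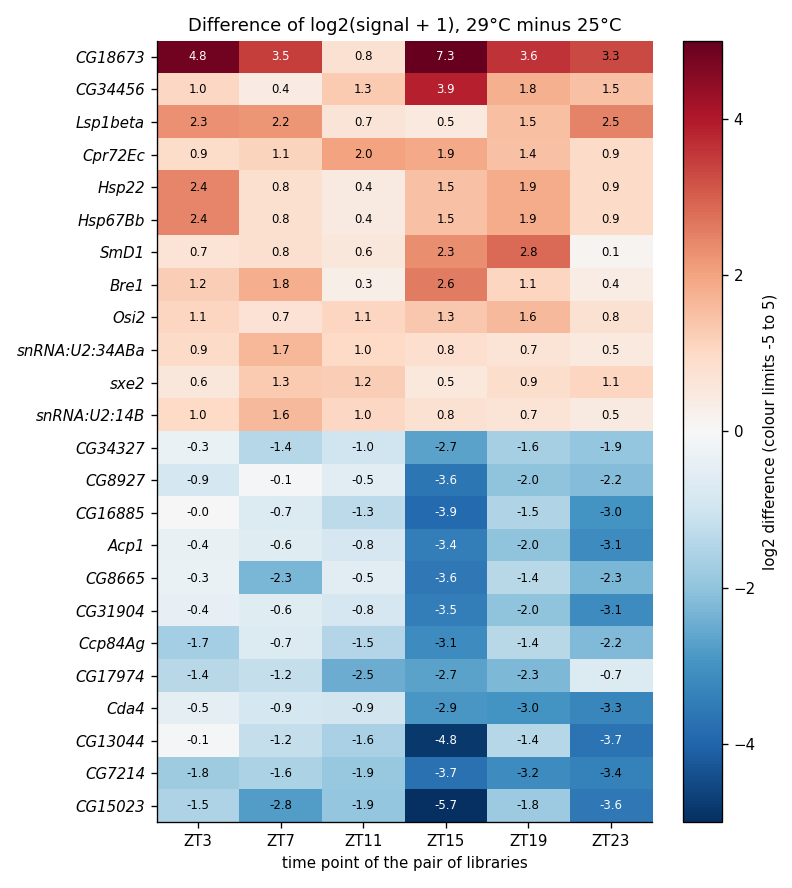
Differences of log2(signal + 1) between the 29°C and the 25°C library of each time point (columns) for the 24 genes with the largest changes of one direction (rows). Red is higher and blue lower at 29°C. Among the falls, the ZT15 column holds the largest difference of most genes, and ZT23 is next for several.

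Every chaperone gene called in the lists below was higher at 29°C, a direction in which 1.15% of all genes were called. In the small heat shock protein list, 2 of 10 tested genes rose and none fell, with a list median of 0.45 (log2). *Hsp22*, a mitochondrial chaperone, ranged from 13.0 to 67.4 (median 37.7) at 25°C and from 53.0 to 130.3 (median 88.1) at 29°C (change 1.33 ± 0.27 in log2 ± SE, limma adjusted p = 0.00487, and 0.0234 without ZT15), higher at 29°C at all 6 time points although the ranges overlapped. The table gives *Hsp67Bb* the same values, so the genes cannot be told apart. *l(2)efl*, a crystallin-type chaperone, ranged from 474 to 596 (median 502) at 25°C and from 620.1 to 835 (median 703) at 29°C with no overlap (change 0.46 ± 0.11 in log2 ± SE, limma adjusted p = 0.0142, and 0.0452 without ZT15). *Hsp23* and *Hsp26*, of the same list, had log2 changes of 0.95 and 0.63 that did not pass (limma adjusted p = 0.201 and 0.364).

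Of 11 tested genes of the Hsp70 and Hsp40 list, only *Hsc70-4*, the constitutive cytosolic Hsp70, was called. It rose, ranging from 2925 to 3737 (median 3114) at 25°C and from 3885 to 4733 (median 4025) at 29°C (change 0.37 ± 0.08 in log2 ± SE, limma adjusted p = 0.00621, and 0.0324 without ZT15), without overlap. The inducible *Hsp70* genes and *Hsp68* were too low to be tested. Among 7 genes of the Hsp90 list none was called by limma and 3 had an unadjusted p under 0.05, although all 7 had log2 changes above 0 (median 0.39). *Hsp83*, which encodes Hsp90, ranged from 508 to 694 (median 562) at 25°C and from 687 to 888 (median 726) at 29°C, just short of the threshold (change 0.39 ± 0.11 in log2 ± SE, limma adjusted p = 0.0510, and 0.0627 without ZT15), and the transcription factor *Hsf* had a log2 change of 0.07 (adjusted p = 0.896). All 14 chaperonin and prefoldin genes had changes above 0 (median 0.24), and 3 rose. These were the mitochondrial partners *Hsp60* and *CG11267* (the Hsp10 homologue), by 0.32 and 0.47, and *Cct5* of the cytosolic ring complex, by 0.57 (log2, limma adjusted p = 0.0424, 0.0218 and 0.0159). Without ZT15 only *CG11267* was called (adjusted p = 0.0152). In the endoplasmic reticulum list 0 of 13 genes were called by limma and 1 had an unadjusted p under 0.05 (median 0.08), and *Pdi* had a log2 change of 0.08 (limma adjusted p = 0.800).

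Ribosomal protein genes were higher at 29°C nearly throughout. Of 82 tested genes for the cytosolic ribosome, 81 had log2 changes above 0 (median 0.22, against 0.03 for all genes), 13 rose and none fell. At all 6 time points 48 of them were higher at 29°C, which 5.63% of all genes were. *sta*, a protein of the small subunit, ranged from 7677 to 9661 (median 8550.4) at 25°C and from 10194 to 14320.0 (median 12088) at 29°C (change 0.48 ± 0.08 in log2 ± SE, limma adjusted p = 0.000777, and 0.00481 without ZT15). *RpS14b*, *RpS6* and *RpL36* rose by 0.42, 0.39 and 0.33 (log2, limma adjusted p = 0.00214, 0.00487 and 0.00846), and in these 4 genes the 6 warm libraries all lay above the 6 at 25°C, a separation seen in 1.16% of all genes. Without ZT15 these 4 were the members still called, and the list median was 0.16. The 18°C means lay lower, at 6280.1 for *sta* and 11115 for *RpL36*. Of 72 mitochondrial ribosomal genes, 51 had changes above 0 (median 0.13) and none was called by limma, with 8 at an unadjusted p under 0.05.

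Translation factors included 5 rises and no fall among 26 (median 0.09), against rises in 1.15% of all genes. *eIF-3p40*, a subunit of initiation factor eIF3, ranged from 692 to 889 (median 727) at 25°C and from 939 to 1239.6 (median 1043) at 29°C (change 0.50 ± 0.09 in log2 ± SE, limma adjusted p = 0.00150, and 0.00740 without ZT15). The poly(A)-binding protein gene *pAbp* rose by 0.36, the eIF3 subunit gene *Trip1* by 0.39, the elongation factor gene *Ef1alpha100E* by 0.34 and the helicase gene *eIF-4a* by 0.32 (log2, limma adjusted p = 0.00731, 0.0114, 0.0121 and 0.0194). Without ZT15, *eIF-3p40*, *pAbp* and *Ef1alpha100E* were called, and the eIF3 subunit gene *eIF-3p66* (log2 change -0.39) passed the threshold as a fall (limma adjusted p = 0.0642 with ZT15 and 0.0452 without). Rises were not general for the list: *Ef1alpha48D*, the other gene of elongation factor 1 alpha, had a log2 change of -0.05 (adjusted p = 0.814) and *Thor*, which inhibits cap-dependent translation, one of -0.16 (adjusted p = 0.454). Proteasome genes pointed the other way, with 29 of 34 not above 0 and a median of -0.16, and none was called by limma, with 5 at an unadjusted p under 0.05. Without ZT15 this median was -0.06.

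Some photoreceptor genes rose and others did not. Of 23 phototransduction genes, *ninaE*, *trp* and *Arr2* rose and none fell (list median 0.09), against rises in 1.15% of all genes. *ninaE* (3R, 15711977 to 15713928), the major rhodopsin of the outer photoreceptors, ranged from 24639 to 27645 (median 26556) at 25°C and from 31529.5 to 48630.5 (median 38519) at 29°C (change 0.54 ± 0.08 in log2 ± SE, limma adjusted p = 0.000357, and 0.00226 without ZT15). *trp*, the light-activated channel, ranged from 4059.6 to 4650.3 (median 4413) at 25°C and from 5558 to 7034 (median 6260.2) at 29°C (change 0.52 ± 0.07 in log2 ± SE, limma adjusted p = 0.000268, and 0.000628 without ZT15). In both genes the groups did not overlap. *Arr2*, the arrestin that binds activated rhodopsin, rose by 0.41 with overlapping ranges (log2, limma adjusted p = 0.00464, 0.0234 without ZT15). Components of the same cells did not pass the test: the phospholipase C gene *norpA* had a log2 change of 0.02, the adhesion protein gene *chp* 0.02 and the scaffold gene *inaD* -0.10 (limma adjusted p = 0.952, 0.961 and 0.740). Named after their values were seen, *inaF-B* and *inaF-A*, of a locus needed for TRP channel function, rose by 0.39 and 0.63 (log2, limma adjusted p = 0.00888 and 0.00713), and without ZT15 only *inaF-A* was called (adjusted p = 0.0547 and 0.0266). *inaF-D* and *inaF-C* carry the same values and cannot be told apart from them. Rhodopsins of other cells, *Rh3*, *Rh4*, *Rh5* and *Rh6*, had changes of 0.00, -0.09, 0.32 and 0.13, none past the test (limma adjusted p between 0.227 and 0.988).

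Several of the largest falls were of cuticle genes. Among 34 tested cuticle protein genes of the Cpr and Twdl families, 5 fell and 1 rose (median -0.44, -0.27 without ZT15), against 1.71% and 1.15% of all genes. *Acp1* (2L, 7740562 to 7741537), an adult cuticle protein, ranged from 5719 to 8789 (median 7666) at 25°C and from 646 to 5328 (median 3368) at 29°C (change -1.74 ± 0.31 in log2 ± SE, limma adjusted p = 0.00180, and 0.0104 without ZT15), and its neighbour *CG31904* carried nearly the same values, so the genes cannot be told apart. *Ccp84Ag* and *Cpr49Ae* fell, with changes of -1.76 and -0.87 (log2, limma adjusted p = 0.000627 and 0.00271, 0.00397 and 0.0201 without ZT15). *Ccp84Ab* and *Cpr92F* fell, with changes of -1.98 and -1.82, not in all 6 pairs and not without ZT15 (adjusted p = 0.202 and 0.158). The member that rose was *Cpr72Ec* (3L, 16358994 to 16360440), which encodes a protein of the corneal lens. It ranged from 392 to 2174 (median 906) at 25°C and from 1102 to 4059.9 (median 2474) at 29°C, with a strong course over the day at both temperatures, and was higher at 29°C at each of the 6 time points (change 1.38 ± 0.21 in log2 ± SE, limma adjusted p = 0.000352, and 0.00145 without ZT15). Its mean at 18°C was 215. Another lens gene, *Cry* (drosocrystallin, not the photoreceptor *cry*), chosen after its values were seen, fell, with a change of -1.65 (log2, limma adjusted p = 0.000855, 0.00601 without ZT15).

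In the list for chitin, the polysaccharide of the cuticle, 2 of 20 genes fell (median -0.40), against 1.71% of all genes. *Cda4*, of the chitin deacetylase family, ranged from 33.8 to 53.9 (median 41.7) at 25°C and from 4.12 to 24.3 (median 11.7) at 29°C (change -1.91 ± 0.38 in log2 ± SE, limma adjusted p = 0.00466, and 0.0301 without ZT15), and the chitinase gene *Cht7* fell, with a change of -1.29 (log2, limma adjusted p = 0.0140, 0.0864 without ZT15). The chitin-binding *Peritrophin-A*, outside the naming rule, fell, with a change of -1.44 (adjusted p = 0.00180 and 0.0163). Of 11 pigment and tanning genes 3 fell (median -0.41, -0.26 without ZT15). *Pu*, GTP cyclohydrolase of pteridine synthesis, ranged from 245 to 400.2 (median 369) at 25°C and from 135 to 273 (median 207) at 29°C (change -0.80 ± 0.11 in log2 ± SE, limma adjusted p = 0.000322, and 0.00145 without ZT15). *Ddc*, which makes dopamine, and *yellow-e* fell, with changes of -0.55 and -0.75 (log2, limma adjusted p = 0.0289 and 0.0200), but not without ZT15 (adjusted p = 0.0934 and 0.0998). After their values were seen, *pr* (pteridine synthesis) and *Hn* (phenylalanine hydroxylase, which uses a pteridine cofactor) were noted too, with changes of -0.68 and -0.34 (limma adjusted p = 0.00661 and 0.0404, 0.0547 and 0.0707 without ZT15).

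The other large falls were mostly of genes known by a number. *CG7214* (2L, 7743682 to 7744839) had the lowest p of any fall, and its signal ranged from 1257 to 2569 (median 1848) at 25°C and from 118 to 693 (median 379) at 29°C (change -2.59 ± 0.25 in log2 ± SE, limma adjusted p = 1.83e-06, and 1.63e-05 without ZT15). Its mean at 18°C was 9969.6, so it stood highest in the cool heads. *CG15023*, a low-signal gene, went from 5.93 to 51.5 (median 13.4) at 25°C and from 0 to 5.17 (median 1.29) at 29°C, with 3 libraries of 29°C at or under 3 reads (change -2.90 ± 0.58 in log2 ± SE, limma adjusted p = 0.00523, and 0.0452 without ZT15). *CG13044*, *CG16885* and *CG8665* fell, with changes of -2.14, -1.73 and -1.74 (log2, limma adjusted p = 0.00151, 0.00112 and 0.00464), and were called without ZT15 as well. *CG17974*, *CG8927* and *CG34327* fell, with changes of -1.77, -1.55 and -1.50, of which only *CG34327* was called without ZT15 (limma adjusted p = 0.0981, 0.0899 and 0.00159).

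Several of these falls were steeper in the dark phase of the day. A limma test of the difference between the phases, added after this was seen, called 12 of 10048 3′ ends (0.119%, with 632 at an unadjusted p under 0.05), in all of which the change was more negative in the dark. In these 12 the 29°C libraries of ZT15, ZT19 and ZT23 (dark) all lay below those of ZT3, ZT7 and ZT11 (light), and at 25°C the dark mean was the lower in 1 of them. These patterns follow in part from the choice of the 12 by that test on the same values, and add no support to it. Among the 12, *Acp1* and *CG31904* carried nearly the same values. Lower means in the dark were not particular to 29°C, since at 18°C the dark mean was below the light mean in 11 of the 12. It was 697 against 1982 for *CG13043* and 1264 against 2277 for *Cpr100A*. All dark libraries lay below all light ones in 2 of the 12 at 18°C and in 0 at 25°C, against 12 at 29°C. *CG7203* (2L, 7752170 to 7753153) ranged over 15182 to 19395 in the light and 14335 to 21473 in the dark at 25°C, and over 15903 to 17178 and 4383 to 7929.8 at 29°C. Its change was thus -0.05 in the light and -1.60 in the dark (log2, difference -1.56 ± 0.22 SE, limma adjusted p = 0.00296). *Acp1* ranged over 4580.0 to 5328 in the light and 646 to 2156 in the dark at 29°C, and over 6939 to 8365 and 5719 to 8789 at 25°C (difference -2.27 ± 0.36 SE, adjusted p = 0.00304). *CG7214*, *Cpr97Eb*, *Cpr100A* and *Ccp84Ab* had differences of -1.68, -2.37, -2.07 and -3.76. *ple*, tyrosine hydroxylase, the first enzyme of dopamine synthesis and of tanning, was 96.8 to 255 in the light and 17.9 to 51.0 in the dark at 29°C (difference -2.65 ± 0.48 SE, limma adjusted p = 0.0167). *CG7203*, *CG7214*, *Acp1* and *CG31904* lie together on 2L (7734415 to 7753153). Without ZT15, 1 of the 12 was called, *CG7203* (limma adjusted p = 0.0343), and *CG7214*, *Cpr97Eb*, *Acp1* and *CG31904* followed at 0.0629. Each phase is 3 libraries per temperature, and whether the phases also differed in the flies collected was not tested.

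**Figure D3:**
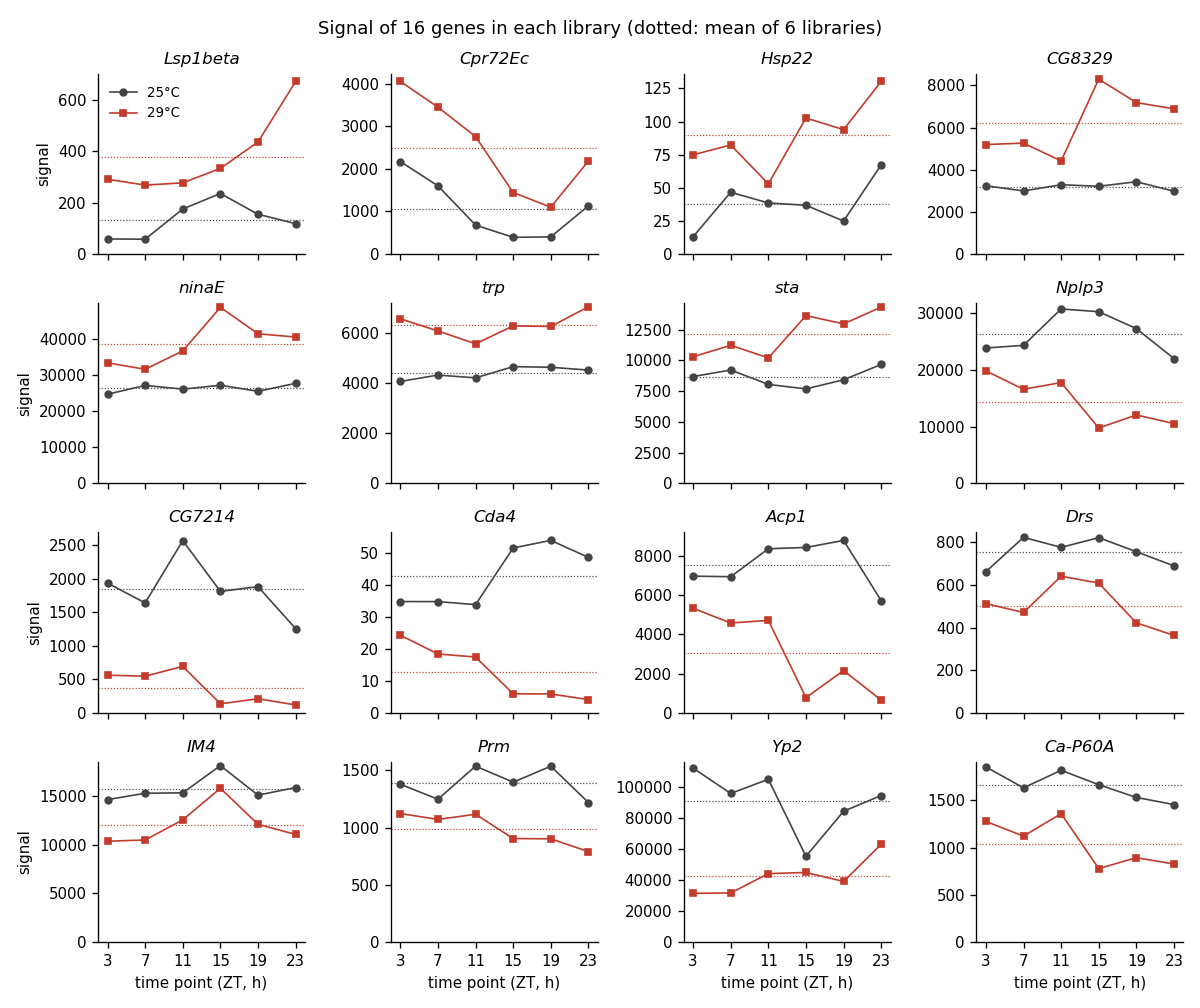
Signal (vertical axes, from 0) of 16 genes by time point (horizontal axes, h) in the 25°C libraries (grey circles) and the 29°C libraries (red squares), 1 library per point. Dotted lines are the means of the 6 libraries of a temperature. At 29°C *CG7214*, *Cda4* and *Acp1* are lower from ZT15 on than before. These genes, *trp* and *Prm* differ between the temperatures in 1 direction at all 6 time points.

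Yolk protein transcripts were lower in the warm heads. Of 8 genes listed for yolk proteins and sex, *Yp2* and *Yp3* fell and *sxe2* rose, against 1.71% and 1.15% of all genes. Yolk proteins are made by the fat body of females, and male flies transcribe the *roX* RNAs of dosage compensation and *sxe2*, a lipase-like gene biased to males. *Yp2* ranged from 55283 to 112005 (median 95036) at 25°C and from 31484 to 62989 (median 41624) at 29°C (change -1.11 ± 0.17 in log2 ± SE, limma adjusted p = 0.000591, and 0.000617 without ZT15) and *Yp3* from 36309 to 80011 (median 70607) at 25°C and from 23209 to 48904 (median 32188) at 29°C (change -1.03 ± 0.18 in log2 ± SE, limma adjusted p = 0.00183, and 0.000789 without ZT15). In both the 25°C library of ZT15 was the lowest of its group and lay within the range of the warm libraries. *Yp1* had a log2 change of -0.51, short of the threshold with ZT15 and past it without (limma adjusted p = 0.0965 and 0.0436). Together the 3 genes took 5.87% ± 1.11 of the signal at 25°C and 3.26% ± 0.739 at 29°C (SD, n = 6), lower at 29°C in 6 of 6 pairs (exact permutation within time points, two-sided p = 0.031, the smallest that 64 exchanges allow, and 0.0625 adjusted over 2 library properties). On the male side, *sxe2* rose, ranging from 262 to 388 (median 314) at 25°C and from 504 to 742 (median 608) at 29°C without overlap (change 0.93 ± 0.19 in log2 ± SE, limma adjusted p = 0.00688, and 0.0163 without ZT15). *roX2* ranged from 40.7 to 110.4 (median 67.4) at 25°C and from 159 to 229 (median 175) at 29°C, also without overlap, but missed the threshold (log2 change 1.38, limma adjusted p = 0.0595), and *roX1* had a log2 change of 0.29 (adjusted p = 0.558). The share of each sex among the flies of a library is not known, and its part in these differences and in those of other fat body genes was not tested.

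Other fat body products moved in either direction. Of 11 tested genes, *Lsp1beta* and *Obp99b* rose and *Obp99a* fell (median -0.39, and -0.20 without ZT15, -0.19 without ZT3, -0.22 without ZT7 and -0.61 without ZT23). Over all genes 1.15% rose and 1.71% fell. *Obp99a*, an odorant-binding protein family member, ranged from 426 to 1658 (median 720.5) at 25°C and from 208 to 712 (median 451) at 29°C (change -0.97 ± 0.20 in log2 ± SE, limma adjusted p = 0.00511, and 0.0235 without ZT15), with a mean of 5775 at 18°C. *Obp99b*, of the same family and region, rose by 0.84 (log2, limma adjusted p = 0.0159, 0.00397 without ZT15). The 27 odorant-binding proteins tested had a median log2 change of 0.09, and -0.06 without ZT15. Among them *Obp57b* rose as well, by 0.53, and *Obp56d* and *Obp99c* fell, with changes of -0.38 and -0.29 (log2, limma adjusted p = 0.0430, 0.0132 and 0.0456). Of these, *Obp57b* and *Obp99c* were not called without ZT15 (adjusted p = 0.0780 and 0.181).

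Several genes of humoral immunity fell. In the list of antimicrobial peptides, immune-induced peptides and peptidoglycan recognition proteins, 6 of 27 fell and none rose (median -0.38), against 1.71% and 1.15% of all genes. Of the 27, 9 were lower at all 6 time points, which 5.09% of all genes were. *Drs*, the antifungal peptide drosomycin, ranged from 662 to 823 (median 766) at 25°C and from 363 to 641 (median 492) at 29°C without overlap (change -0.61 ± 0.12 in log2 ± SE, limma adjusted p = 0.00487, and 0.00601 without ZT15), a separation in this direction that 1.13% of all genes showed. The drosomycin-like *Drsl4* and the immune-induced peptide genes *IM2* and *IM4* fell, with changes of -0.84, -0.45 and -0.39 (log2, limma adjusted p = 0.00233, 0.0117 and 0.0117, and under the threshold without ZT15 too, at 0.00215, 0.0268 and 0.0104). The recognition proteins *PGRP-SB1* and *PGRP-SD* fell, with changes of -0.52 and -0.48, but not without ZT15 (limma adjusted p = 0.0734 and 0.0649). Of the Turandot genes, whose peptides are secreted into the haemolymph under stress, *TotC* fell (change -1.62 ± 0.43 in log2 ± SE, limma adjusted p = 0.0382, and 0.0417 without ZT15). It ranged from 108 to 564 (median 305) at 25°C and from 41.3 to 623 (median 79.0) at 29°C, and only the 29°C library of ZT23 was high. *TotA* had a log2 change of -1.13 that did not pass (adjusted p = 0.114).

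Genes of the contractile apparatus fell, and none rose. Of 19 tested genes for muscle proteins, 6 fell (median -0.26), and 11 were lower at all 6 time points, against 1.71% and 5.09% of all genes. *Prm*, paramyosin, ranged from 1218 to 1536 (median 1387) at 25°C and from 791 to 1122 (median 988) at 29°C without overlap (change -0.50 ± 0.09 in log2 ± SE, limma adjusted p = 0.00151, and 0.00856 without ZT15). The myosin light chain genes *Mlc1* and *Mlc2*, the actin gene *Act57B*, the tropomyosin gene *Tm2* and the troponin T gene *up* fell, with changes of -0.59, -0.37, -0.49, -0.39 and -0.31 (log2, limma adjusted p = 0.00464, 0.00778, 0.00908, 0.0172 and 0.0493). Without ZT15, *Prm*, *Mlc1* and *Mlc2* were still called, and the actin gene *Act79B* (log2 change 1.24) passed the threshold as a rise (limma adjusted p = 0.130 with ZT15 and 0.0476 without). The myosin heavy chain gene *Mhc* had 6 warm libraries all below the 6 at 25°C and a log2 change of -0.26 that missed the threshold (adjusted p = 0.0508). After its values were seen, *Ca-P60A*, the calcium pump of the sarcoplasmic reticulum and of other cells, was added. It ranged from 1454 to 1852 (median 1647) at 25°C and from 778 to 1358 (median 1007) at 29°C without overlap (change -0.70 ± 0.10 in log2 ± SE, limma adjusted p = 0.000268, and 0.00124 without ZT15). The troponin C gene *TpnC25D*, added likewise, fell, with a change of -0.46 (log2, limma adjusted p = 0.00271, 0.0163 without ZT15). The mean signal of *Mlc2* was 14136 in the 18°C libraries, 8796 ± 656 in those of 25°C and 6822 ± 750.3 at 29°C (± SD).

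The list of neuropeptide and neuronal marker genes gave 1 call, a fall, among 20 tested (median -0.06, 0.04 without ZT15). Falls were called in 1.71% of all genes. The neuropeptide genes *Capa* and *Dsk*, which rose, are not on the list. *Nplp3* (3L, 16311124 to 16311790), a neuropeptide-like precursor among the most abundant transcripts of these heads, ranged from 22028 to 30769 (median 25826) at 25°C and from 9778 to 19846 (median 14336) at 29°C without overlap (change -0.91 ± 0.12 in log2 ± SE, limma adjusted p = 0.000229, and 0.000628 without ZT15). It lies beside *CG13044* and *CG13043* on 3L and, like the cuticle genes, was lowest at 29°C in the dark, at 9778 to 12068 against 16603 to 19846 in the light, though the test of that difference did not pass (limma adjusted p = 0.139). Of 7 glia markers, *Gs2*, glutamine synthetase, fell, with a change of -0.33 (log2, limma adjusted p = 0.0223), but not without ZT15 (adjusted p = 0.0893). The glutamate transporter gene *Eaat1* had a log2 change of -0.38 that did not pass (limma adjusted p = 0.0622), and *repo* and *alrm* were at 0.05 and -0.03.

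Few genes on the lists of glycolysis and fat storage were called, while enzyme genes outside these lists were called too. In glycolysis, 11 of 13 genes had log2 changes below 0 (median -0.19) and 6 had an unadjusted p under 0.05. At all 6 time points 6 of the 13 were lower, as were 5.09% of all genes. Only *Gpdh*, glycerol-3-phosphate dehydrogenase, was called. It ranged from 489 to 554 (median 513) at 25°C and from 358 to 472 (median 370.1) at 29°C, with no overlap but at the edge of the threshold (change -0.39 ± 0.11 in log2 ± SE, limma adjusted p = 0.0499, and 0.151 without ZT15), with a mean of 1033 at 18°C. The glycogen-branching enzyme gene *AGBE*, added after its values were seen, fell, with a change of -0.70 (log2, limma adjusted p = 0.00363, 0.0201 without ZT15), with means of 1477, 573 ± 87.2 and 356 ± 80.2 in the order 18°C, then 25°C, then 29°C. Among 14 genes of fat storage none was called by limma and 2 had an unadjusted p under 0.05 (median -0.18), and the lipid carrier gene *Rfabg* had a log2 change of -0.24 (limma adjusted p = 0.414).

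The detoxification genes that passed the test fell. These were 5 of 50 cytochrome P450 genes (median 0.01, -0.09 without ZT15) and 2 of 25 glutathione S-transferase genes (median -0.11, -0.04 without ZT15). Over all genes 1.71% fell. *Cyp6d5* ranged from 1579.5 to 2183 (median 1807) at 25°C and from 1067 to 1385 (median 1168) at 29°C (change -0.62 ± 0.10 in log2 ± SE, limma adjusted p = 0.000472, and 0.000617 without ZT15). *Cyp12a4*, *Cyp4p1* and *Cyp4e1* fell, with changes of -0.52, -0.79 and -0.95 (log2, limma adjusted p = 0.00466, 0.0132 and 0.0458), the last not without ZT15 (adjusted p = 0.131). *Cyp9f2* fell, with a change of -0.36 (limma adjusted p = 0.0467), but not without ZT15 (adjusted p = 0.0864). *GstE12* ranged from 2234 to 2899.7 (median 2453) at 25°C and from 1780.0 to 2044 (median 1852) at 29°C, again with no overlap (change -0.40 ± 0.07 in log2 ± SE, limma adjusted p = 0.00237, and 0.00268 without ZT15), and *GstE13* fell, with a change of -0.74 (adjusted p = 0.0121). *Jheh1*, a juvenile hormone epoxide hydrolase gene noted after its values were seen, fell, with a change of -0.68 (limma adjusted p = 0.00487, 0.0272 without ZT15).

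**Figure D4:**
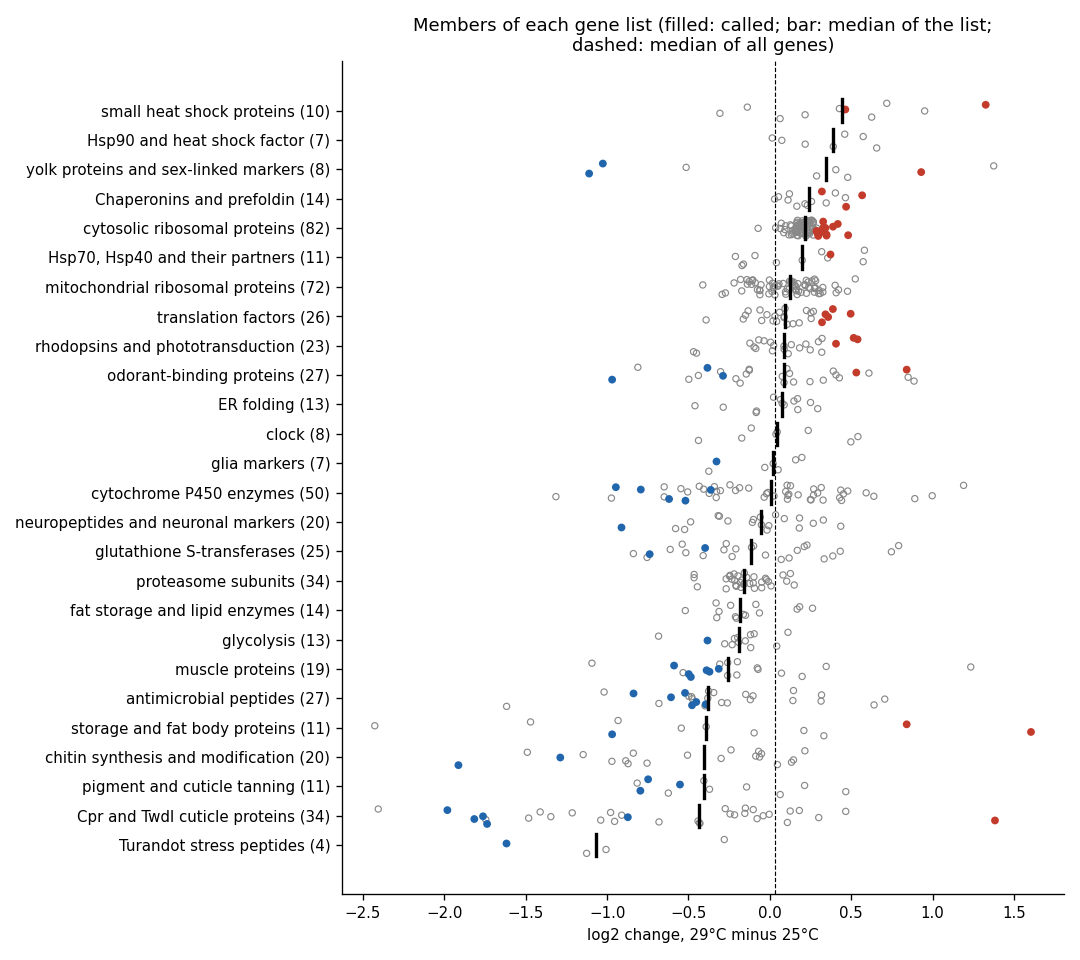
Log2 change (29°C minus 25°C, horizontal axis) of each tested member of 26 gene lists (rows, number of members in brackets), ordered by the list median (black bar). Filled points are called genes, red higher and blue lower at 29°C, and open points are not called. The dashed line is the median of all genes, 0.03. Heat shock and ribosomal lists lie to its right and cuticle, immune and muscle lists to its left.

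The central clock was not detectably shifted in level. The daily loop of *per*, *tim*, *Clk* and *cyc*, with *vri* and *Pdp1* as its second loop, makes its transcripts rise and fall each day, so means over the 6 time points hide a change of phase. None of the 8 clock genes was called by limma, and 1 of them, *vri*, had an unadjusted p under 0.05. *tim* ranged from 63.0 to 520.0 (median 312) at 25°C and from 141 to 436 (median 324) at 29°C, with its highest values at ZT11 to ZT19 at both temperatures (log2 change 0.24 ± 0.26 SE, limma adjusted p = 0.731). *per* ranged from 16.6 to 130.0 (median 40.8) at 25°C and from 16.9 to 66.9 (median 26.9) at 29°C, with the peak at ZT15 (log2 change -0.44 ± 0.31 SE, adjusted p = 0.555), and *vri* had a log2 change of 0.54 ± 0.25 SE (adjusted p = 0.288). *Pdp1*, *cyc*, *cwo* and *cry* had changes of 0.05, 0.04, -0.11 and -0.17 with SE of 0.18 to 0.29, and *Clk* was too low to be measured well (change 0.50 ± 0.67 SE).

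Because reads mark transcript ends, a change in the choice among the ends of a gene can be tested. Of 499 genes with at least 2 separable ends, 1 changed (0.200%, limma diffSplice, adjusted p under 0.05), and 36 had an unadjusted p under 0.05. In *Hrb98DE*, which encodes an RNA-binding protein of the hnRNP A family, the end of the transcript at 3R, 24425556 to 24430817 took 59.8% to 74.1% of the gene's signal at 25°C and 77.7% to 84.4% at 29°C, against 68.2% ± 3.00 at 18°C (SD, n = 6). The ranges did not overlap, and the share was higher at 29°C in 6 of 6 pairs (mean 67.9% ± 4.72 and 82.4% ± 2.58, diffSplice adjusted p = 0.0363). The call was lost without ZT15 (limma diffSplice adjusted p = 0.260) and when ZT3, ZT11, ZT19 or ZT23 was left out, and was kept without ZT7. Next came *4EHP*, a cap-binding repressor of translation, *CG32425* and the serotonin receptor gene *5-HT2A*, none past the threshold (diffSplice adjusted p = 0.351 for each). The share of the longer *CG32425* transcript (3L, 20490423 to 20507207) was 10.7% ± 3.26 in the 18°C libraries, 22.6% ± 7.13 in those of 25°C and 37.2% ± 7.55 at 29°C (SD, n = 6).

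All 232 called genes kept their direction without ZT15, and in 169 the change was smaller. Of these genes, 111 were still called and 121 were not, and over all 3′ ends 148 were called. In a fit of only the 25°C and 29°C libraries, the removal of ZT15 raised the number of called 3′ ends to 424, from 347 with it, so the loss in the 18-library fit holds for that fit. Of the 97 called genes named here, 66 were still called without ZT15 in the 18-library fit and 89 in the fit of only 25°C and 29°C. Adjusted p-values given for single genes without ZT15 are those of the 18-library fit. Leaving out any 1 time point gave 148 to 268 calls, with ZT15 at the low end and ZT3 at the high end and with 169, 194 and 196 without ZT23, ZT19 and ZT7, and 85 of the 232 called genes were called in every one.

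**Figure D5:**
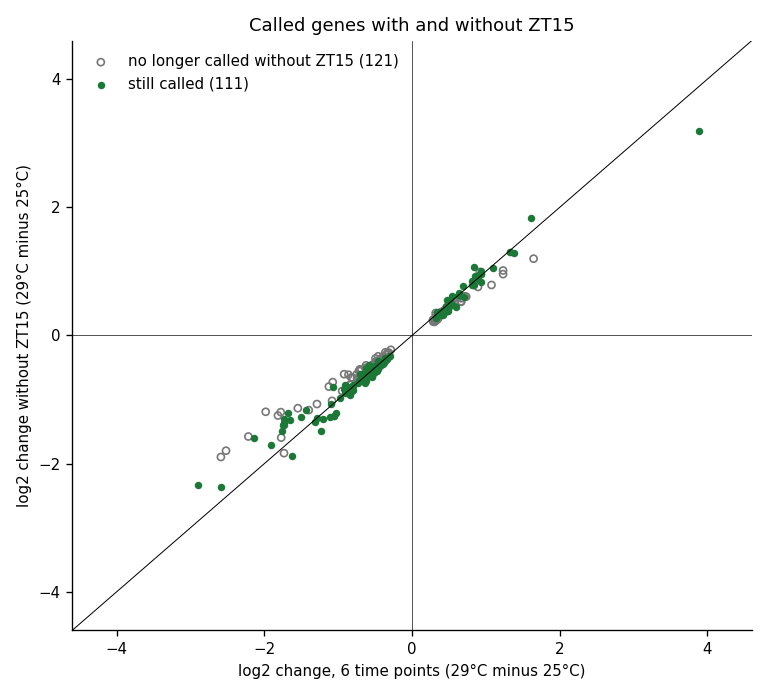
Log2 change without ZT15 (vertical axis) against that over all 6 time points (horizontal axis) for the 232 called genes, with the line of equality. Green points were still called without ZT15 (111) and open points were not (121). No point changed sign, and the largest falls lie above the line, nearer to 0.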

How the data were processed

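RNA of *Drosophila* heads had been sequenced by the authors at its polyadenylated 3′ ends. They deposited 1 table with a signal value for each annotated RefSeq transcript and library: reads divided by 1 constant per library. The submitters' notes name Bowtie2, TopHat, Cufflinks and the dm3 build, and the counting rule and the constants are not given in the sources used here. A median of 97.2% to 97.7% of a group's values were whole multiples (within 0.01) of the worth of 1 read, which gave the estimated depth. As this signal is scaled, tests for counts were left out.

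Of 29561 rows, 667 held no values. Transcripts of a gene with identical values were counted once, which left 17691 rows, and 836 rows without a gene name were named by accession (198) or by identical values (320) where possible, with the RefSeq gene table. A row entered the tests if 6 or more of the 18 libraries had 10 or more there (10048 rows). limma 3.58.1 in R 4.3.3 was fitted to log2(signal + 1) of all 18 libraries, with time point as a block and a trended prior variance (10 residual degrees of freedom). Fold changes of low genes are understated on this scale. p-values were adjusted by Benjamini-Hochberg over all tested rows, and "called" means an adjusted p under 0.05. Of the called rows, 8 had no gene name and 150 tested rows shared their values with another gene. A gene is represented by the row with the highest signal, and, among the largest changes, by the row of lowest p. End use was tested by limma diffSplice on rows at least 10% apart, and library properties by exact permutation. The scripts were tested on simulated data.

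The time points, shared in the labels, pair the libraries. Deviations from the group means correlated between the 25°C and 29°C libraries of a time point at r = -0.06 to 0.11 across rows, highest for the own time point in 4 of 6. Named genes were, in each direction, the 12 of largest change with the same sign in 6 of 6 pairs, up to 4 called members per list (up to 2 abundant ones where none was called), the 8 clock genes and 4 genes of end use. Genes named as seen afterwards, members given beside others of their list, and the test of light against dark were chosen after their values were known. The members and lists were chosen with earlier results of these data known. Alternatives were other scalings, filters, pseudocounts, row merging and blocks, and each time point left out.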

Additional observations from a re-analysis of the deposited data

Results flagged for a closer look

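In 20 of 262 groups of 6 libraries (7.6%), 1 library lay far from the other 5, where chance gives about 1 in 20. Of these, 10 were the 25°C library of ZT15. Its signal was 36309 for *Yp3*, 53603 for *Yp1*, 18076 for *IM4*, 287 for *Ccp84Ab*, 228 for *CG8927*, 130.0 for *per* and 73.6 for *Cht7*. Its signal was 51.5 for both *CG15023* and *Hsp26*, and its yolk share was 3.73%. The 25°C library of ZT23 stood apart for *eIF-3p40* (889), *Pu* (245), *Obp57b* (203) and the muscle gene *Mf* (647), and the 29°C library of ZT23 for *TotC* (623) and *TotA* (469). The others were *Bre1* at 110.1 in 29°C ZT15, *Cry* at 235 in 29°C ZT3, *Mal-A1* at 9.67 in 25°C ZT19 and *DnaJ-1* at 80.5 in 25°C ZT7.

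The change between 25°C and 29°C differed between the dark and the light phase of the day in 12 rows (limma test of the difference). The change in the dark minus that in the light was -1.56 for *CG7203*, -1.68 for *CG7214*, -2.37 for *Cpr97Eb*, -2.27 for *Acp1*, -2.27 for *CG31904* and -2.65 for *ple*. It was -2.85 for *CG8736*, -2.12 for *CG16885*, -2.07 for *Cpr100A*, -4.30 for *CG13043*, -3.76 for *Ccp84Ab* and -4.69 for *CG12998* (log2).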

How the results depend on the processing

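The number of called 3′ ends was 220 to 351 under other scalings, pseudocounts, filters, row merging and 12-library fits with or without the block, 580 with all rows as deposited (each transcript of a gene counted) and 39 without a trend in the prior variance, where 17 of 97 called genes named here were still called. Without the block for time point it was 232 against 295 with it, and 83 of the 97 were still called. Leaving out 1 time point gave 148 (without ZT15) to 268 calls, 0 to 1 gene with changed end use, and a difference in yolk share of -3.05 to -2.31 percentage points, with an exact p of 0.0625, the smallest that 5 pairs allow. Without ZT15, 1 of the 12 differences between dark and light was called. In no alternative did a called gene named here change direction. Directions changed for some genes that were not called. *CG16817* was at -0.0020 with median-of-ratios factors. In the fit of 12 libraries without ZT15, *CG16817*, *Pdi* and *Prosbeta5* were at -0.058, -0.0070 and 0.012. Leaving out 1 time point gave log2 changes of -0.058 to 0.057 for *CG16817*, -0.0070 to 0.15 for *Pdi*, -0.10 to 0.19 for *Pdp1*, -0.095 to 0.015 for *Prosbeta1*, -0.21 to 0.012 for *Prosbeta5*, -0.24 to 1.01 for *Clk*, -0.030 to 0.14 for *cyc*, -0.26 to 0.14 for *cwo* and -0.39 to 0.043 for *cry*. The list medians of clock, glia, P450, neuropeptide and odorant-binding genes were near 0 and changed sign in some alternative. With 1.24 M reads in the shallowest library, low genes such as *Clk* were measured too loosely to show a change, and the smallest change called was 0.28 (log2, *CG1561*).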

Other observations

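Other called genes were chosen after their values were seen. *Atpalpha* and *nrv3*, the alpha and a beta subunit of the sodium pump, fell, with changes of -0.34 and -0.33 (log2, limma adjusted p = 0.0197 and 0.0396), lower at 29°C at all 6 time points, with means of 1430.2 ± 127 and 1135 ± 135 for *Atpalpha* at 25°C and 29°C (SD, n = 6). Neither was called without ZT15 (limma adjusted p = 0.0998 and 0.152). The glutamate-gated chloride channel gene *GluClalpha* and the dynamin gene *shi*, which acts in endocytosis at synapses, fell, with changes of -0.53 and -0.48 (log2, limma adjusted p = 0.0430 and 0.0420), but not without ZT15 (adjusted p = 0.172 and 0.173). The ferritin heavy chain gene *Fer1HCH* fell by 0.30 and was called without ZT15 as well (limma adjusted p = 0.0247 and 0.0459). *LKR*, of lysine breakdown, fell by 1.31 (limma adjusted p = 0.0139, and 0.0395 without ZT15).

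The peroxiredoxin gene *Jafrac1* rose, with means of 1413 ± 71.7 in the 25°C libraries and 1799 ± 54.2 in those of 29°C (log2 change 0.35 ± 0.07 SE, limma adjusted p = 0.00806, and 0.0264 without ZT15). Another peroxiredoxin gene, *Prx2540-1*, fell by 0.70 (limma adjusted p = 0.0334, and 0.116 without ZT15). The glutathione synthetase genes *Gss1* and *Gss2* and the entries *GS* and *CG32495* carry the same values and cannot be told apart. Their shared signal rose by 0.48 (log2, limma adjusted p = 0.0247, and 0.114 without ZT15). *Dsk*, the drosulfakinin neuropeptide gene, rose by 0.66 (limma adjusted p = 0.0471, and 0.190 without ZT15). *Non1*, a GTPase of ribosome assembly, and *RpL24-like*, also of ribosome assembly, rose by 0.42 and 0.48 and were called without ZT15 too (limma adjusted p = 0.0452 and 0.0490 there).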
